A study of Homo sapiens with 6 samples.

Results

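HDAC1 to HDAC10 are 10 human genes of zinc-dependent histone deacetylases, picked by their symbols from the 16250 genes with values in this series. The family was selected on earlier results of the same libraries, in which HDAC5 had stood among the genes with the clearest difference between groups, so the differences of the members between groups are given as a description, and the calls of members stated with them, which come from the same values, are not evidence of their own. All 10 members were found, and all 10 passed the filter on low values (at least 3 libraries with 0.5 FPKM or more), which left 12127 genes to test in all. FPKM counts the fragments of a gene relative to transcript length and to all mapped fragments of the library. Levels of genes within a library can be set side by side. Between libraries they also depend on the composition of the RNA, and the FPKM totals of the libraries were unequal (672807 to 760889). Other scalings between libraries were therefore run as alternatives. FPKM does not give read numbers, and the depth of each library is unknown.

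The cells were HK-2, an immortalized line of human proximal tubule epithelium. All 6 libraries came from HK-2 cells that stably carried NK-1R, the receptor of the neuropeptide SP (substance P), on a lentiviral pCDH-CMV vector and had been selected with puromycin. The 3 SP libraries were from cells given 20 µM SP for 48 h, and the 3 control libraries from the same kind of cells given PBS for 48 h. No library of cells without the added receptor was analysed here, and the viral CMV promoter drives the receptor irrespective of its natural control. TACR1, the receptor gene, was itself unequal between the groups, with 15.7, 25.8 and 33.0 FPKM in control and 78.5, 123 and 141 FPKM in SP, so differences between the groups go with receptor transcript as well as with SP, and these cannot be told apart.

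Among the proximal tubule markers, GGT1, PAX8 and PAX2 had at least 1 FPKM in every library, and 7 others, among them AQP1, CUBN and SLC34A1, stayed under 1 FPKM throughout. Of 6 epithelial markers, 5 were at 1 FPKM or more in every library and CDH1 was under it. The endothelial markers PECAM1, VWF and CDH5 were under 1 FPKM in all 6 libraries, and summed to 0.05 to 0.07 FPKM in control and 0.33 to 0.67 FPKM in SP, where most of it was PECAM1. Of 3 leukocyte markers, PTPRC was under 1 FPKM, and the list summed to 113 to 117 FPKM in control and 108 to 115 FPKM in SP, nearly all of it CD68. Of 6 fibroblast markers, 4 (COL1A2, COL3A1, PDGFRB and DCN) were under 1 FPKM, and the list summed to 23.5 to 29.9 FPKM in control and 15.7 to 18.1 FPKM in SP. The libraries came from cultures of a single cell line, so these lists are read as transcript levels and not as a mixture of cell types. In bulk RNA, fewer cells with a transcript and less of it per cell cannot be told apart. The part of the endothelial and fibroblast marker differences in the HDAC values was not tested.

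Histone deacetylases take acetyl groups off lysines of histones and of other proteins, and acetylated histones are a mark of active chromatin. The class I enzymes HDAC1, HDAC2, HDAC3 and HDAC8 are mostly nuclear, and HDAC1, HDAC2 and HDAC3 work as catalytic subunits of large corepressor complexes. The class IIa enzymes HDAC4, HDAC5, HDAC7 and HDAC9 have little deacetylase activity of their own, bind transcription factors of the MEF2 family, and leave the nucleus when kinases phosphorylate them and 14-3-3 proteins hold them in the cytoplasm. The class IIb enzymes are HDAC6, which deacetylates tubulin in the cytoplasm, and HDAC10, which deacetylates polyamines. In the kidney, inhibitors of these enzymes have been studied in models of fibrosis.

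Upstream sequence was compared among the members because some of them were higher and others lower in SP. RefSeq windows of 300 bases around transcription starts on GRCh38.p14 were found for 9 of the 10 members (not for HDAC5), 19 windows in all, 5 of them at HDAC9. Each was searched on both strands for the GC box (GGGCGG), the AP-1 motif (TGANTCA), the CRE (TGACGTCA) and the MEF2 motif, none of which contains another. The 2 HDAC9 stretches below are shown because the MEF2 and AP-1 matches found in the 19 windows fell there, and capitals mark that match in each. The first is chr7:18086675-18086834 and the second chr7:18495560-18495709, both on the plus strand.
HDAC9 first start, MEF2 match in capitals: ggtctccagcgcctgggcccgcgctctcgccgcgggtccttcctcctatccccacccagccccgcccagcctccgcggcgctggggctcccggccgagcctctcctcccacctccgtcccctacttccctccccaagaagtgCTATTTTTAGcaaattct
HDAC9 later start, AP-1 match in capitals: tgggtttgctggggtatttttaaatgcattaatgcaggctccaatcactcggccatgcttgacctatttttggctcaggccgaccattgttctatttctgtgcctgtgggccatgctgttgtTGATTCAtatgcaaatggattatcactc
The first base of the MEF2 match lay 8 bases before the first HDAC9 start, and that of the AP-1 match 28 bases before the later one. A MEF2 match was found in 2.99% of the 35116 windows in the table and in 1 of the 19 windows of HDAC genes. An AP-1 match was found in 7.71% of all windows and in 2 of 19, both at HDAC9, where neighbouring starts share the same site. The GC box was found in 45% of all windows and in 8 of 19, with 6 matches at HDAC1, 4 at HDAC10 and none in the HDAC2, HDAC7 and HDAC8 windows. The CRE was found in 1.85% of all windows and in 0 of 19. A match is a description of these letters and was not tested as a binding site.

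The family spanned a wide range of levels. HDAC1 was highest and HDAC4 lowest, and every class I gene except HDAC8 was above every class II gene in control (FPKM). Against all tested genes, the mean control level of HDAC1 lay at the 95.3 percentile, that of HDAC2 at 91.6, that of HDAC3 at 87.1 and that of HDAC8 at 69.8. In class II, HDAC7 lay at the 78.2 percentile, HDAC6 at 49.6, HDAC5 at 33.0, HDAC10 at 29.4, HDAC9 at 27.9 and HDAC4 at 1.97. The control ranges of HDAC10 and HDAC9 overlapped, while those of HDAC5 and HDAC10 were apart. In SP the order changed at HDAC5, which moved above HDAC6 in every library, and at HDAC9, which moved above HDAC10.

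**Figure D1:**
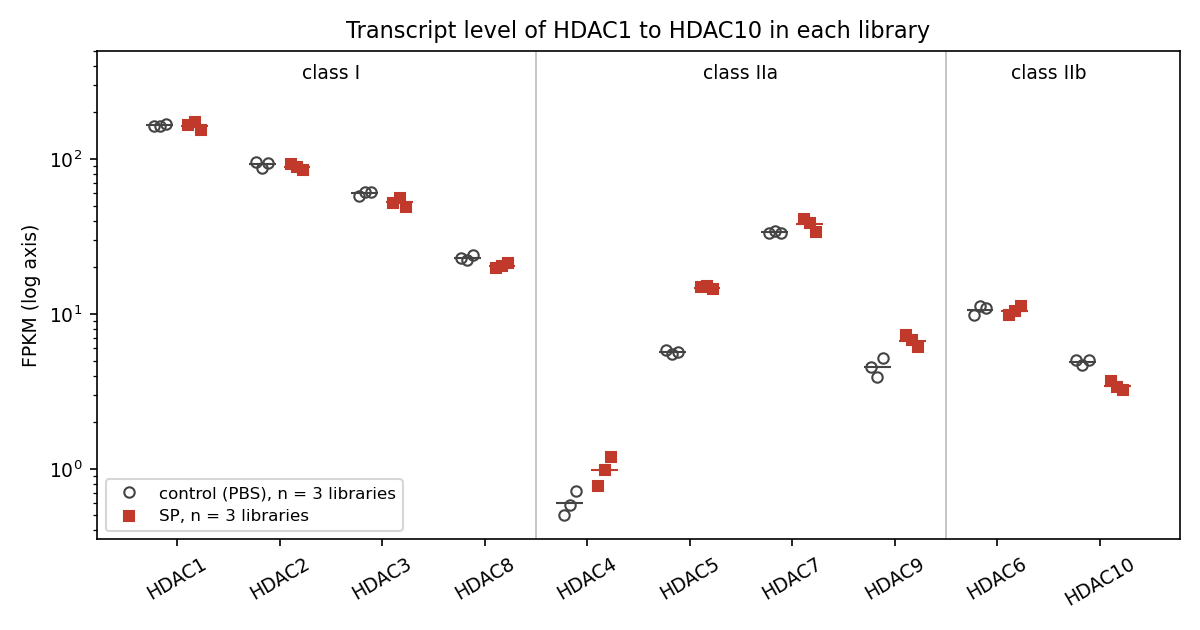
FPKM of the 10 HDAC genes (log axis) in each of 3 control libraries (open circles) and 3 SP libraries (filled squares), with horizontal lines at group means and vertical lines between classes. HDAC5 stands apart between the groups (5.49 to 5.89 FPKM in control, 14.4 to 15.1 FPKM in SP), while the HDAC1, HDAC2, HDAC6 and HDAC7 groups overlap.

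HDAC5, a class IIa corepressor of MEF2 factors, showed the widest separation of the family. In GENCODE 29 on GRCh38 it spans 44076746 to 44123702 of chromosome 17 (minus strand), and its principal transcript has 27 exons and encodes 1123 residues. The HDAC5 level was 5.89, 5.49 and 5.69 FPKM in the control libraries and 14.8, 15.1 and 14.4 FPKM in the SP libraries. The groups were far apart and the libraries of each group close together, so that the mean in SP was 2.60 times that in control. The log2 fold change of HDAC5 on the log2(FPKM + 1) scale, on which all fold changes here are given and which understates the change of low genes, was 1.24 (SE 0.07, n = 3 libraries per group). It stayed between 1.22 and 1.36 under 14 other ways of processing the values. The span of an antisense gene, AC023855.1, overlaps 4684 bases of the HDAC5 span, introns included. Whether exons overlap was not examined, and how strand was handled in counting is not stated in the sources. The part of AC023855.1 reads in the HDAC5 value was not tested.

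HDAC9, a class IIa enzyme with many transcript forms, spans 18086949 to 19002416 of chromosome 7 (plus strand) and has 16 coding transcripts in the annotation. Some known forms lack the catalytic domain, and a value per gene does not separate them. HDAC9 had 4.54, 3.93 and 5.19 FPKM in control and 7.27, 6.74 and 6.08 FPKM in SP. All SP values exceeded all control values, by a margin that was narrow between the third libraries of the groups. The means were 4.55 ± 0.630 and 6.70 ± 0.596 FPKM (SD, n = 3), and the log2 fold change was 0.47 (SE 0.11). Its fold change was 0.39 without the second control library, 0.42 without the first SP library and 0.47 without the second, and in these 3 cases HDAC9 was no longer among the called genes.

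HDAC4, the class IIa gene known from cartilage and muscle, was scarce in these cells. It had 0.5, 0.58 and 0.72 FPKM in control and 0.77, 0.98 and 1.19 FPKM in SP. The groups did not overlap, but the highest control and the lowest SP library were close. The ratio of SP to control means was 1.63. The log2 fold change of HDAC4 was 0.30 (SE 0.11) with a pseudocount of 1 and 0.62 with a pseudocount of 0.1, so its size depends on the scale used for genes near the filter.

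HDAC7, the most abundant class IIa gene and one known for its role in endothelium, had 33.5, 34.1 and 33.3 FPKM in control and 41.2, 38.6 and 34.0 FPKM in SP. The SP libraries were more spread than the control libraries, and the third SP library lay under the second control library. The means were 33.7 ± 0.441 and 37.9 ± 3.69 FPKM (SD, n = 3), and the log2 fold change was 0.16 (SE 0.08).

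Among the class IIb genes, HDAC10 was lower in SP and HDAC6 overlapped between groups. HDAC10 spans 50245183 to 50251405 of chromosome 22 (minus strand). It had 5.03, 4.65 and 5.03 FPKM in control and 3.71, 3.4 and 3.22 FPKM in SP. Every SP library was below every control library, and the ratio of SP to control means was 0.702. The log2 fold change of HDAC10 was -0.41 (SE 0.08), and without the second SP library it was -0.40 and the gene was not called.

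The span of HDAC10 shares 5956 bases on the same strand with that of MAPK12, the gene of a p38 kinase, introns included. Whether their exons overlap, so that reads could belong to either, was not examined. MAPK12 had 22.9, 20.6 and 19.6 FPKM in control and 13.6, 14.8 and 16.3 FPKM in SP. It was lower in SP by nearly the same ratio (0.708, log2 fold change -0.47, adjusted p = 0.00955 from limma). The part of any shared reads in the HDAC10 value was not tested.

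HDAC6, the tubulin deacetylase, had 9.86, 11.2 and 10.8 FPKM in control and 9.79, 10.5 and 11.3 FPKM in SP. These ranges lay over each other, with means of 10.6 ± 0.687 and 10.5 ± 0.756 FPKM (SD, n = 3) and a log2 fold change of -0.01 (SE 0.08). The sign of this value turned with other scalings between libraries.

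The class I genes were lower in SP or overlapped between the groups. HDAC1, the catalytic subunit of the SIN3, NuRD and CoREST complexes, had 163, 164 and 169 FPKM in control and 166, 173 and 155 FPKM in SP. The control libraries fell inside the SP range, and the log2 fold change of -0.01 (SE 0.06) turned sign with other scalings. HDAC1 has processed pseudogenes in the genome that can share reads with it. HDAC2, its close paralogue, had 96.0, 87.1 and 94.5 FPKM in control and 93.5, 88.9 and 84.4 FPKM in SP. The HDAC2 groups overlapped as well, with a log2 fold change of -0.06 (SE 0.07) that was 0.006 once libraries were scaled to equal totals.

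HDAC3, the catalytic subunit of the NCoR and SMRT complexes, had 57.7, 61.0 and 61.2 FPKM in control and 52.2, 55.8 and 49.3 FPKM in SP. All SP libraries were under all control libraries, and the control mean was 1.14 times the SP mean. Its log2 fold change was -0.19 (SE 0.07). HDAC8, which deacetylates the cohesin subunit SMC3, had 22.9, 22.1 and 24.2 FPKM in control and 19.7, 20.3 and 21.4 FPKM in SP. Its groups did not overlap either, with a log2 fold change of -0.17 (SE 0.07). The span of the annotated gene AL133500.1 overlaps 243328 of the 243684 bases of the HDAC8 span on the same strand, introns included. Whether their exons overlap, so that reads could belong to either, was not examined. The median log2 fold change over all tested genes was -0.05, and neither HDAC3 nor HDAC8 was called under any of 14 alternatives.

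**Figure D2:**
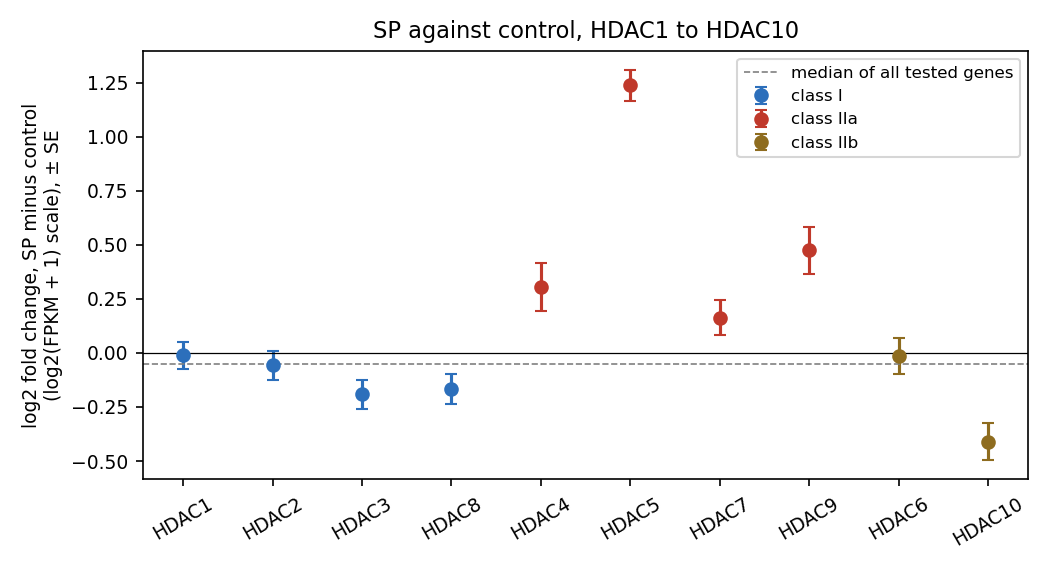
Log2 fold change (SP minus control, log2(FPKM + 1) scale) of each HDAC gene with its standard error as a bar, from 3 libraries per group, coloured by class. HDAC5 (1.24) lies above the rest, HDAC10 (-0.41) is the lowest, and the dashed line is the median of all tested genes (-0.05).

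Calls of genes were made where the adjusted p of limma, a linear model that pools information on spread across genes, was under 0.05. By this rule 2 of 10 members, HDAC5 and HDAC9, were called higher in SP, beside 8.57% of all tested genes, and 1 member, HDAC10, was called lower, beside 12.0% of all tested genes. With a log2 fold change of at least 1 added, 1 member (HDAC5) was called higher, beside 1.29% of all tested genes. SP libraries lay wholly above control libraries for 3 members (HDAC4, HDAC5 and HDAC9), beside 15.9% of all tested genes, and wholly below for 3 members (HDAC3, HDAC8 and HDAC10), beside 26.1%. Since the family was chosen with this contrast in view, nothing is read from these shares. Whether the libraries of a group came from separate cultures is not stated in any source used, so the p-values given for other genes measure library-to-library spread only, which may be technical.

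Class II against class I was compared within each library. The mean log2(FPKM + 1) of the 6 class II genes minus that of the 4 class I genes was -3.27, -3.26 and -3.25 in control and -2.86, -2.89 and -2.84 in SP. All 3 SP libraries were above the control libraries, and the difference between groups was 0.40. On this log2 scale the class I mean was lower in SP by 0.11, and the class II mean differed by 0.29. The median over all tested genes was -0.05, and the class I value depends on scaling. With equal totals the log2 fold changes were 0.051 for HDAC1, 0.0059 for HDAC2, -0.13 for HDAC3 and -0.11 for HDAC8. The class II minus class I difference was then 0.387. Within class II the IIa mean differed by 0.54 and the IIb mean by -0.21. Class IIb holds 2 genes, and its value came from HDAC10 (-0.41), while HDAC6 differed by -0.01. The opposite sign of IIb thus rests on HDAC10. With HDAC5 left out of class II, an alternative added after seeing the data, the class II minus class I values were -3.26, -3.24 and -3.22 in control and -3.02, -3.06 and -3.003 in SP, a difference of 0.21 between groups.

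On the FPKM scale, the class I genes summed to 340, 334 and 349 in control and to 331, 338 and 310 in SP, and these ranges overlapped. The class II sum was 59.3, 59.98 and 60.8 FPKM in control and 77.6, 75.3 and 70.2 FPKM in SP, with no overlap. HDAC transcripts were thus mostly of class I in both groups, and class II made up 14.9, 15.2 and 14.8% of the FPKM of all 10 genes in control and 19.0, 18.2 and 18.5% in SP. The share of HDAC5 in class II FPKM was 9.93, 9.15 and 9.36% in control and 19.1, 20.01 and 20.5% in SP. Within class IIa alone it was 13.3, 12.4 and 12.7% in control and 23.1, 24.5 and 25.9% in SP, while HDAC7 remained the most abundant class IIa gene in every library. HDAC1 held 48.1, 49.1 and 48.5% of class I FPKM in control and 50.02, 51.2 and 49.9% in SP, a narrower difference than that of HDAC5 in its class.

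**Figure D3:**
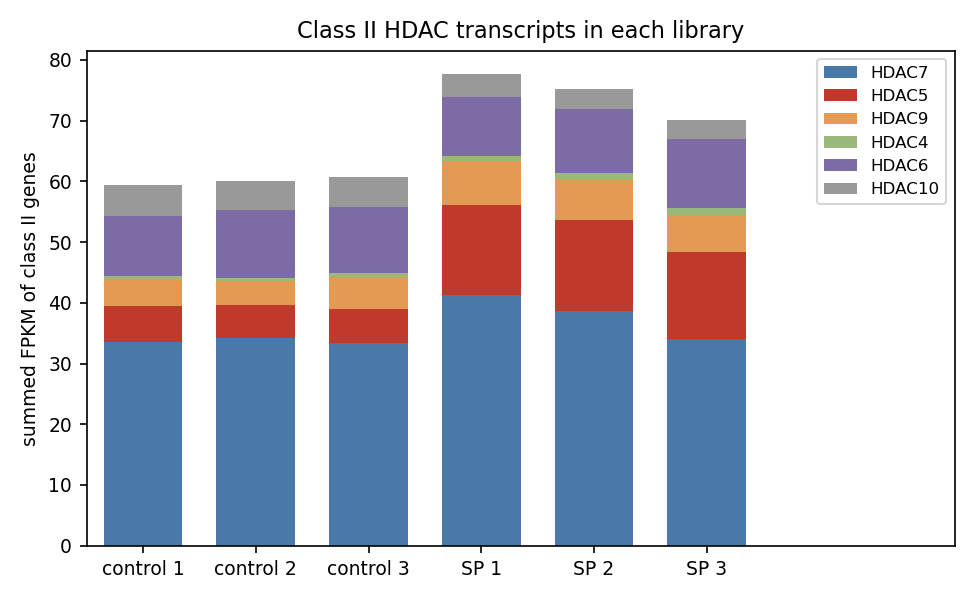
Summed FPKM of the 6 class II HDAC genes in each library, stacked by gene from HDAC7 at the base to HDAC10 at the top. The bars reach 59.3 to 60.8 FPKM in control and 70.2 to 77.6 FPKM in SP, with a thicker HDAC5 layer in all 3 SP libraries.

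The tested genes whose pattern over the 6 libraries was most like that of HDAC5 were SLC49A4, a transporter of the lysosomal membrane, DKK1, a secreted Wnt inhibitor, and CTSB, the lysosomal protease cathepsin B. Pearson's r of their log2(FPKM + 1) with HDAC5 was 0.999, 0.999 and 0.998, a description over 6 libraries in 2 groups, where any gene with tight and separate groups comes close to 1. The r was above 0.99 for 23 of 12126 other genes and above 0.95 for 306. SLC49A4 had 7.82 ± 0.169 FPKM in control and 12.2 ± 0.151 FPKM in SP, and CTSB had 61.8 ± 2.14 and 117.5 ± 3.07 FPKM (SD, n = 3).

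The genes that work with HDAC proteins were followed in 14 lists. These were written by function, with earlier results of the same libraries known, so they are not independent of the data. Of 141 listed genes 133 were tested, of which 10 rose and 8 fell in SP (7.52% and 6.02%, beside 8.57% and 12.0% of all tested genes). Their median log2 fold change was -0.04, beside -0.05 over all tested genes. The remaining 115 were not called.

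The factors that class IIa proteins bind had the most higher calls of the 14 lists. Of 10 tested, 4 rose and none fell (40% and 0%, beside 8.57% and 12.0% of all tested genes). The median log2 fold change over the list was 0.08. At an unadjusted p under 0.05 in limma, 4 genes of the list were higher and 1 was lower. MEF2D, a MADS-box factor that class IIa proteins repress, had 6.67, 6.97 and 7.49 FPKM in control and 14.8, 17.2 and 16.4 FPKM in SP. The SP level of MEF2D was 2.29 times the control level (log2 fold change 1.09, SE 0.08, adjusted p = 0.000272 from limma), a size near that of HDAC5. MEF2A had 5.64, 5.73 and 5.73 FPKM in control and 10.1, 9.37 and 8.48 FPKM in SP (log2 fold change 0.62, adjusted p = 0.00269 from limma). MEF2C was scarce, with 0.47, 0.64 and 0.65 FPKM in control and 1.57, 1.24 and 1.29 FPKM in SP (log2 fold change 0.58, adjusted p = 0.00739 from limma). MEF2A and MEF2C thus rose from different levels, and their groups were apart. BCL6, a zinc finger repressor that binds class IIa proteins and SMRT, had 5.47, 5.63 and 6.31 FPKM in control and 9.90, 10.5 and 11.5 FPKM in SP (log2 fold change 0.77, adjusted p = 0.00134 from limma). MEF2B, named after its values were seen to complete the family, had 1.26, 1.43 and 0.57 FPKM in control and 0.41, 1.01 and 0.76 FPKM in SP (log2 fold change -0.26, adjusted p = 0.343 from limma), and its groups overlapped. The calls of MEF2A, MEF2C, MEF2D and BCL6 held under all 14 alternatives. MEF2C, however, met the filter (0.5 FPKM in 3 libraries) only with its SP libraries, and the filter at 1 FPKM through these alone. Its place among the tested genes thus rests on the group where it was high. With no filter its adjusted p was 0.0107 in limma.

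**Figure D4:**
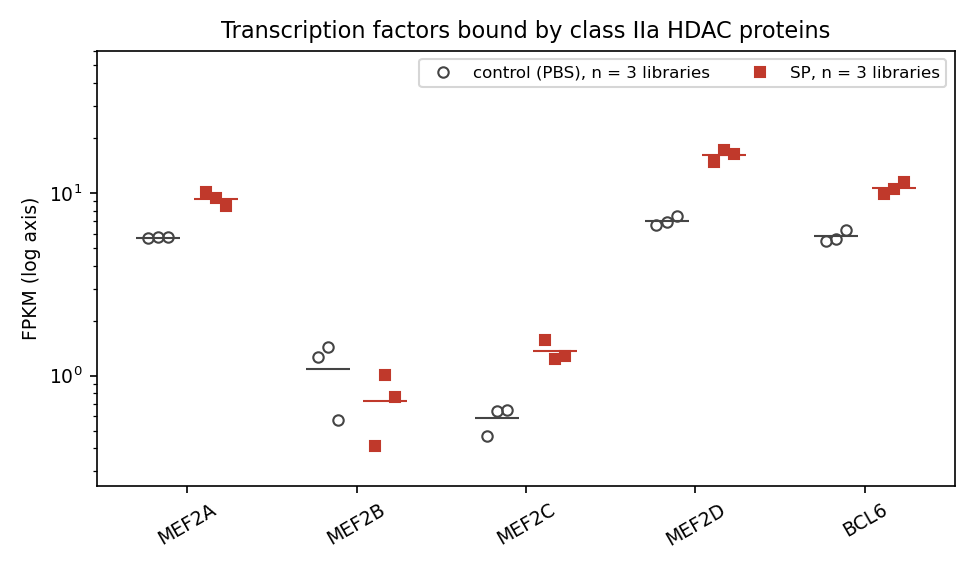
FPKM (log axis) of the 4 MEF2 genes and BCL6 in 3 control libraries (open circles) and 3 SP libraries (filled squares), with lines at group means. MEF2D goes from 6.67 to 7.49 FPKM in control to 14.8 to 17.2 FPKM in SP, and MEF2B is the only gene plotted whose groups overlap.

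Of the kinases that phosphorylate class IIa proteins, 17 were tested and none was called at an adjusted p under 0.05 in limma. At an unadjusted p under 0.05 there were 2 higher and 1 lower, and the lowest p-values were those of MARK3 and SIK3. Of the 14-3-3 genes, whose proteins hold phosphorylated class IIa enzymes in the cytoplasm, 2 of 7 fell and none rose. The share called lower was 28.6%, beside 12.0% of all tested genes. YWHAE had 547, 533 and 541 FPKM in control and 448, 432 and 439 FPKM in SP (log2 fold change -0.30, adjusted p = 0.0107 from limma). YWHAH had 113, 100 and 99.3 FPKM in control and 86.7, 78.4 and 79.8 FPKM in SP (log2 fold change -0.35, adjusted p = 0.0145 from limma). Both 14-3-3 genes had groups that did not overlap, but without the second SP library their adjusted p was 0.0659 and 0.0708. With quantile normalization YWHAE had a log2 fold change of -0.18 and an adjusted p of 0.0632 in limma.

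In the class I complexes few subunits were called, and most of those fell by a small amount. The share called lower was 12.5% in SIN3, 16.7% in NuRD and 22.2% in CoREST, beside 12.0% of all tested genes. In the NCoR and SMRT list and in the MiDAC list it was 0%. With libraries scaled to equal totals, the genes that fell (RBBP4, RBBP7, KDM1A and ZMYM3) had limma adjusted p from 0.0618 to 0.194. SIN3 (16 tested) and NuRD (12 tested) each had 2 genes that fell and none that rose, and these were the same genes, since the histone chaperones RBBP4 and RBBP7 are subunits of both. RBBP4 had a mean of 32.2 ± 1.29 FPKM in control and 25.1 ± 1.08 FPKM in SP (log2 fold change -0.35, adjusted p = 0.00954 from limma, and 0.0618 with libraries scaled to equal totals). RBBP7 had 155 ± 3.70 and 129 ± 7.60 FPKM (log2 fold change -0.26, limma adjusted p = 0.0240), a p that was above 0.05 under 6 of 14 alternatives, among them leaving out control library 2, SP library 2 or SP library 3. In the CoREST list, 1 of 9 rose (11.1%, beside 8.57% of all tested genes) and 2 fell. GSE1 rose from 7.10 ± 0.452 to 10.8 ± 0.699 FPKM (adjusted p = 0.00412 from limma). KDM1A, the histone demethylase of the complex, and ZMYM3 had adjusted p = 0.0385 and 0.0424 from limma, and each was above 0.05 under 10 of 14 alternatives, with a highest value of 0.194 for KDM1A and 0.168 for ZMYM3. With the replicate block ZMYM3 was not called (limma adjusted p = 0.0574), and in NuRD MBD3 was called lower besides (limma adjusted p = 0.0336).

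Among the subunits of the NCoR and SMRT complex, in which HDAC3 works, 1 of 6 rose and none fell. These shares were 16.7% and 0%, beside 8.57% and 12.0% of all tested genes. TBL1X, the WD40 protein of the complex, had 13.7, 14.9 and 16.6 FPKM in control and 23.5, 30.5 and 30.3 FPKM in SP. All SP libraries were above all control libraries for TBL1X, opposite to HDAC3 (log2 fold change 0.85, adjusted p = 0.00259 from limma). In the MiDAC list (4 tested, with DNTTIP1 and MIDEAS lowest in p) and in the cohesin cycle, which HDAC8 serves (13 tested, with CDCA5 and MAU2 lowest in p), no gene was called by limma. At an unadjusted p under 0.05 there was none in MiDAC, and CDCA5 and MAU2 were higher in the cohesin list.

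Polyamine metabolism, in which HDAC10 acts, had 3 genes that rose and 1 that fell of 9 tested. These shares were 33.3% and 11.1%, beside 8.57% and 12.0% of all tested genes. SMOX, the spermine oxidase, had 42.4, 56.3 and 66.0 FPKM in control and 82.4, 137 and 192 FPKM in SP. The SMOX libraries were widely spread within each group (log2 fold change 1.24, adjusted p = 0.0175 from limma), and without the second SP library its adjusted p was 0.0645. SAT1, which acetylates spermidine and spermine, rose from 179.9 ± 17.8 to 273 ± 42.8 FPKM (adjusted p = 0.0113 from limma), and ODC1, the first enzyme of polyamine synthesis, rose from 34.0 ± 1.68 to 46.4 ± 4.90 FPKM (adjusted p = 0.0110 from limma). SMS, the spermine synthase, fell from 208 ± 6.46 to 168 ± 3.797 FPKM (adjusted p = 0.00948 from limma). With the replicate block AMD1 was called higher too (limma adjusted p = 0.0187). Of the synthetic genes called without the block, ODC1 thus rose and SMS fell, while the catabolic genes SMOX and SAT1 rose. A link of these levels to that of HDAC10 was not tested.

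Of the partners of HDAC6 and of tubulin acetylation, 1 of 11 rose (9.09%, beside 8.57% of all tested genes). This was CTTN, the actin-binding HDAC6 substrate cortactin, with 33.6 ± 0.456 FPKM in control and 38.9 ± 1.55 FPKM in SP (limma adjusted p = 0.0473), a p that was above 0.05 under 8 of 14 alternatives, with any 1 library left out and with the replicate block (0.0568) among them. With the replicate number as a block the list held no higher call and 2 lower ones, so its calls depend on the block. The log2 fold changes of CTTN, ATAT1 and TUBA1A were the same in both fits. Without the block, 1 gene of the list was higher and 3 were lower at an unadjusted p under 0.05 in limma. The lower calls with the block were ATAT1, the tubulin acetyltransferase, and TUBA1A, an alpha-tubulin. ATAT1 had a log2 fold change of -0.40 (limma adjusted p = 0.0560 without and 0.0146 with the block). For TUBA1A the log2 fold change was -0.63 (limma adjusted p = 0.0514 without and 0.0242 with the block). TUBA1A had 133, 74.4 and 77.4 FPKM in control and 60.9, 59.5 and 56.3 FPKM in SP, so the first control library stood apart from the others. Of 10 histone acetyltransferases, which put on the marks that HDACs take off, KAT2A was the 1 that fell, from 22.3 ± 1.04 to 17.9 ± 1.38 FPKM (adjusted p = 0.0290 from limma, above 0.05 under 6 of 14 alternatives, which include leaving out any 1 library but the first SP library). The share of these acetyltransferases called lower was 10%, beside 12.0% of all tested genes. None of the 3 BET readers of acetyl-lysine that were tested was called by limma. BRD2 and BRD3 had the lowest p, and BRD2 was the 1 reader, higher in SP, at an unadjusted p under 0.05.

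HDAC11 and the sirtuins, the deacetylases outside classes I and II, had no call by limma in either direction among 8 tested genes, and 0 at an unadjusted p under 0.05. HDAC11, the class IV enzyme, had a mean of 2.31 FPKM in control and 1.94 FPKM in SP (log2 fold change -0.17, adjusted p = 0.248 from limma), and SIRT1, a NAD-dependent deacetylase, differed by 0.16 on the log2 scale (limma adjusted p = 0.188).

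**Figure D5:**
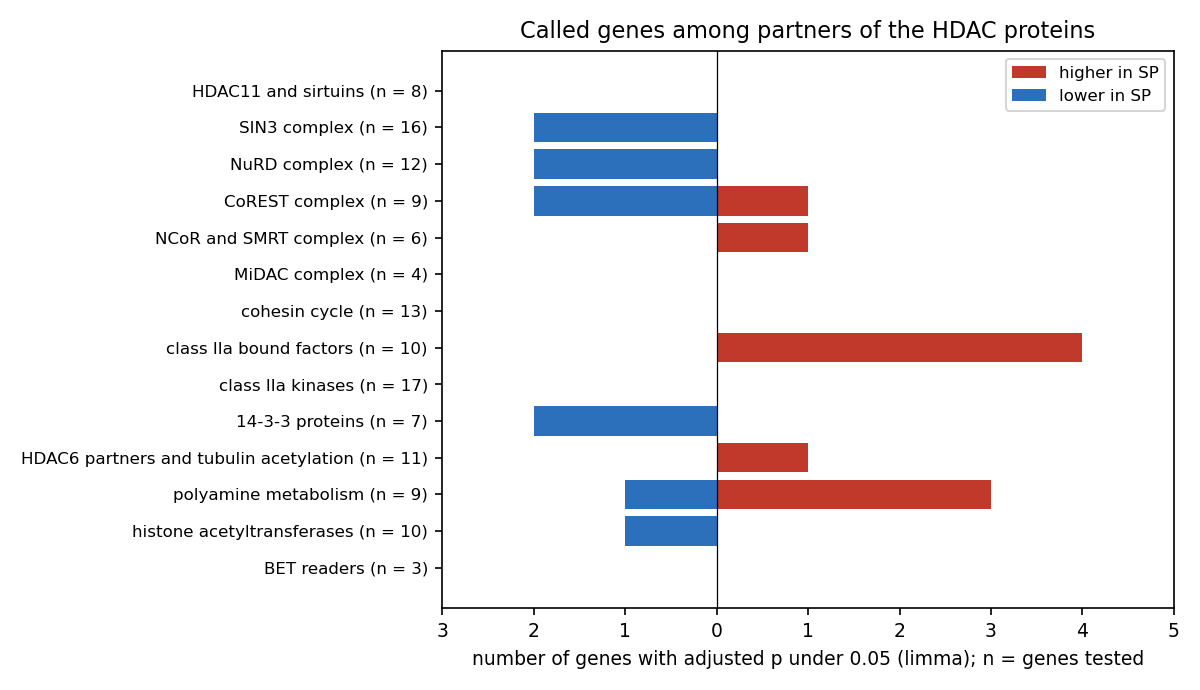
Number of genes called lower (left of 0) and higher (right of 0) in SP in each of the 14 partner lists, at an adjusted p under 0.05 in limma, with the number tested beside each name. The class IIa bound factors hold 4 higher calls and 0 lower ones, and 5 lists hold none. Over all tested genes, 8.57% were called higher and 12.0% lower.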

How the data were processed

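RNA of 3 SP and 3 control libraries was sequenced on DNBSEQ as paired-end reads. The FPKM values that the authors deposited, rounded to 2 decimals, came from RSEM after mapping by HISAT. Bowtie2, HISAT2, hg38 and GRCh38.p13 stand in the submitters' processing notes without versions. These are not counts, so no count test was run, and depth is unknown. Values correlated across genes with r of 0.990 to 0.996 within groups, and no pair of libraries held identical values. FPKM totals of the libraries were 672807 to 760889.

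Genes at 0.5 FPKM or more in 3 or more libraries were fitted on the log2(FPKM + 1) scale by limma (version 3.58.1, R 4.3.3), using a variance trend and Benjamini-Hochberg adjustment over all 12127 genes. The procedure was tested on simulated data. Members and lists were chosen with earlier results of these data known. Genes named are the 10 members, TACR1, up to 4 called genes with the smallest p in each list (or 2 where none was called), and the 3 genes most correlated with HDAC5. Others (MAPK12, marker genes, MEF2B and genes called only with the block) were added to them, and 1 marker is not reported here. Positions are from GENCODE 29 on GRCh38, and upstream windows from RefSeq.

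Same-numbered libraries of the groups deviated together from their group means (correlations of 0.165, 0.223 and 0.17, against -0.148 to -0.0363 for other numbers), so a fit with the replicate block was run. The meaning of the numbers is not stated, so the pairing rests on the correlations alone. The 14 alternatives were another pseudocount (0.1), no filter, a filter at 1 FPKM, the block, no variance trend, 3 scalings and each library left out. Calls with a 2-fold limit were counted as well, and the class comparison without HDAC5 was added after seeing the data.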

Additional observations from a re-analysis of the deposited data

How the results depend on the processing

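HDAC5 was called higher under all 14 alternatives, HDAC9 under 11 and HDAC10 (lower) under 13. The replicate block left the member calls at 2 higher and 1 lower. Among partner genes, 16 calls were shared by the fits with and without the replicate block, CTTN and ZMYM3 were called only without it, and ATAT1, MBD3, TUBA1A and AMD1 only with it, and it changed no other call of the members or partners. The class II minus class I difference between groups (0.40) was 0.473 with a pseudocount of 0.1, 0.371 with quantile normalization, 0.21 with HDAC5 left out and 0.387 to 0.414 with 1 library left out. With 1 library left out, members called higher ranged from 1 to 2 and lower from 0 to 1, partner genes lower from 2 to 10, all genes higher from 474 to 1117 and lower from 426 to 1413, with the lowest counts of all genes without SP library 2. Partner genes lower (8) numbered 4 with equal totals and 5 with median-ratio scaling or quantile normalization. Genes called higher and lower numbered 1039 and 1457, against 1044 and 751 with equal totals, 1274 and 935 with median-ratio scaling, 1181 and 1301 with quantile normalization, and 156 and 37 with a 2-fold limit. Near 0, signs turned for genes without a call. The log2 fold change of HDAC1 was 0.051 with equal totals, 0.039 with median-ratio scaling, 0.026 with quantile normalization, 0.0039 without control library 3, 0.032 without SP library 3 and -0.050 to 0.032 over all libraries left out in turn. That of HDAC2 was 0.0059 with equal totals. That of HDAC6 was 0.043 with equal totals, 0.032 with median-ratio scaling, 0.020 and 0.00030 without control library 2 or 3, 0.032 without SP library 1 and -0.063 to 0.032 over all libraries left out in turn. That of BRD3 was 0.020, 0.0098 and 0.091 with equal totals, with median-ratio scaling and without control library 3, and -0.12 to 0.091 over all libraries left out in turn. The cause of these changes was not tested. Of 32 other named genes, 11 had another call or sign under some alternative. HDAC4 was not tested with the filter at 1 FPKM. Depth is unknown, so no counting interval can be given, and rounding to 2 decimals limits genes as low as HDAC4.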
